A study of Mus musculus with 16 samples.

Results

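The LSD1 binding peaks of CD8+ T cells were compared between vehicle (Veh) and LSD1 inhibitor (GSK) treatment. All peaks of the 2 deposited LSD1 lists were taken, 21252 from Veh and 19919 from GSK, which made 41171 of the 214352 peaks in the 12 lists of the series. A peak was called shared if it overlapped a peak of the other list by at least 1 bp, and otherwise Veh-only or GSK-only.

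The cells were splenic CD8+ T cells of OT1 mice, which carry a transgenic T-cell receptor for an ovalbumin peptide, so nearly all of their CD8+ T cells see 1 antigen. They were activated with anti-CD3 and anti-CD28 antibodies for 48 h and expanded in IL-2 for 3 days. GSK2879552, an irreversible inhibitor of LSD1, was present at 0.5 μM throughout in the GSK group, and Veh cells were given vehicle only. LSD1 ChIP-seq, in which DNA bound by the protein is pulled down with an antibody and sequenced, gave 1 library per treatment, and the age and sex of the mice are not given in the labels. A difference between treatments therefore cannot be told apart from a difference between the 2 libraries, no test was possible, and all results below are descriptions. Read depth was not analysed here, and the intervals in brackets (95%, Wilson for shares and order statistics for medians) cover counting error only.

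LSD1 (KDM1A) removes methyl groups from H3K4me1 and H3K4me2, the marks of enhancers and of the flanks of promoters. It does not read DNA letters itself. It works in the CoREST complex with the deacetylases HDAC1 and HDAC2, and is brought to DNA by factors such as those of the GFI1 and SNAI families. In T cells, RUNX, ETS, AP-1 and STAT factors occupy many of the enhancers that activation and IL-2 open.

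The labelled cell type was checked with H3K4me3, a mark of active promoters. An H3K4me3 peak stood at the promoter of 6 of 6 CD8+ T-cell markers (Cd3d, Cd3e, Cd3g, Cd8a, Cd8b1 and Cd2) in both treatments. Of 11 markers of CD4+ T cells, B cells, myeloid cells and NK cells, only the myeloid gene Cd14 had one, in both treatments.

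Of the Veh peaks, 11597 were shared (54.6%, 53.9 to 55.2) and 9655 were Veh-only. Of the GSK peaks, 11507 were shared (57.8%, 57.1 to 58.5) and 8412 were GSK-only. The 3 classes differed in where they lay and in the DNA under them. Printed first are 2 windows of 121 bp centred on summits, for single-treatment sites within 1 kb of a transcription start site (TSS). They were chosen by strength and are not typical of their class. Each is the peak of highest −log10 p of its class whose window lay outside exons and was at most 50% repeat-masked, and CpG dinucleotides, which are rare in the mouse genome outside CpG islands, are in capitals. Emp3, the gene of an epithelial membrane protein, had a Veh-only peak at chr7:45921806-45921926, and Ephb6, the gene of an Eph receptor that lacks kinase activity, a GSK-only peak at chr6:41605293-41605413 (both mm10, plus strand).
Emp3, Veh-only: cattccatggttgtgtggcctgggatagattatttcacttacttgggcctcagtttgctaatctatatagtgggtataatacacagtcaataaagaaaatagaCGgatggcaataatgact
Ephb6, GSK-only: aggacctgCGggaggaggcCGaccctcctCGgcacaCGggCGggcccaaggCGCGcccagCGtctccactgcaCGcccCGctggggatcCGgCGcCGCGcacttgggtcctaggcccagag
The GSK-only window held 14 CpGs at 76.0% GC, and the Veh-only window 1 at 38.0%. Both lay outside the quartiles of their class near TSSs, measured 100 bp to either side of the summit. These were 61.2% and 72.1% GC for GSK-only peaks, and 51.7% and 65.7% for Veh-only peaks. The LSD1 fold enrichment over background was 6.08 in Veh at Emp3 and 8.33 in GSK at Ephb6.

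Windows were chosen in the same way in all 3 classes over 10 kb from a TSS. In capitals are exact matches on either strand to the letters TGTGGTTT, bound by RUNX factors, or TGANTCA, bound by AP-1. The nearest TSS was that of Yae1d1 for the shared peak (chr13:17975948-17976068), of Ssh2, a phosphatase that acts on cofilin, for the Veh-only peak (chr11:77386517-77386637), and of Cldn9, a claudin of tight junctions, for the GSK-only peak (chr17:23699960-23700080).
Yae1d1, shared: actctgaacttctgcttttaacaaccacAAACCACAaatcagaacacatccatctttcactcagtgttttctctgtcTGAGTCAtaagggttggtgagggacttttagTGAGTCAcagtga
Ssh2, Veh-only: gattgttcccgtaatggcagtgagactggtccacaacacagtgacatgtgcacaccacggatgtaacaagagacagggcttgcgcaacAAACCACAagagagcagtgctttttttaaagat
Cldn9, GSK-only: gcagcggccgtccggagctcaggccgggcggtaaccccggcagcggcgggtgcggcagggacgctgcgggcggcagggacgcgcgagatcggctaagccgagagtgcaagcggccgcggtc
The shared window held 1 RUNX match and 2 AP-1 matches, and the Veh-only window 1 RUNX match. The GSK-only window held no match to any of the 19 motifs searched, but 20 CpGs at 77.7% GC, far above the median of 51.2% for GSK-only peaks over 10 kb from a TSS. The Yae1d1 peak had the highest fold of the whole Veh list, 23.8, and stood at 10.97 in GSK. The Ssh2 peak had a fold of 13.6 in Veh, with the nearest GSK summit 38.4 kb away.

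Shared peaks lay at TSSs far more often than peaks of either single treatment. The median distance from summit to the nearest TSS was 458 bp (439 to 477) for shared Veh peaks and 20329 bp (19492 to 21189) for Veh-only peaks. For GSK the medians were 414 bp (398 to 431) for shared and 10974 bp (10258 to 11686) for GSK-only peaks. Positions spaced every 10 kb along the genome had a median of 52222 bp, so both single-treatment classes still lay nearer to genes than such a grid. Summits within 1 kb of a TSS made up 60.8% (59.9 to 61.7) of shared Veh peaks, 14.3% (13.6 to 15.0) of Veh-only peaks and 32.1% (31.1 to 33.1) of GSK-only peaks. The single-treatment classes thus differed from each other, with more GSK-only than Veh-only peaks at TSSs, 2700 against 1382.

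**Figure D1:**
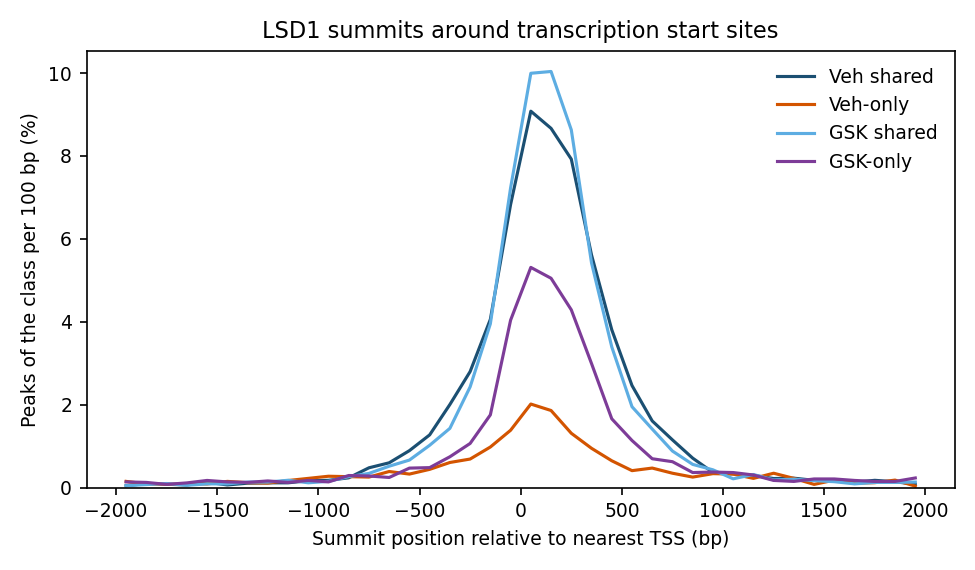
Position of LSD1 summits relative to the nearest TSS (x axis, bp, positive downstream), as the percent of all peaks of a class per 100 bp (y axis), for shared peaks of each list, Veh-only and GSK-only peaks. All 4 lines peak within 200 bp downstream of the TSS, at 10.0% for shared GSK, 9.08% for shared Veh, 5.31% for GSK-only and 2.02% for Veh-only peaks.

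Most summits near a TSS lay downstream of it. Among summits within 1 kb, 67.9% of shared Veh, 60.3% (57.7 to 62.9) of Veh-only, 70.1% of shared GSK and 70% (68.2 to 71.7) of GSK-only summits did so. The median position was 121 bp downstream for shared Veh peaks and 120 bp for GSK-only peaks, and 77.5 bp (51 to 93) for Veh-only peaks. The share of peaks found in the other list fell with distance from the TSS in both directions of the comparison. Of Veh peaks, 84.9% were overlapped by a GSK peak within 100 bp of a TSS, 83.2% from there to 1 kb, 43.3% at 1 to 10 kb, 35.8% at 10 to 100 kb and 19.1% (17.3 to 21.0) beyond 100 kb. Of GSK peaks, 71.5%, 72.4%, 50.6%, 45.3% and 25.3% (23.0 to 27.7) were overlapped by a Veh peak at the same distances. Near TSSs the Veh list was the better covered, and beyond 1 kb the GSK list was.

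Within genes, single-treatment peaks were more often intronic. First introns held 6.63% of shared Veh, 13.4% of Veh-only and 9.17% of GSK-only summits, and other introns 9.71%, 24.2% and 18.4%. Intergenic summits made up 20.1% of shared Veh peaks, 45.3% of Veh-only and 36.2% of GSK-only peaks. Coding exons held 2.095%, 1.52% and 2.89% of these classes. Most single-treatment peaks had no near miss in the other list. The nearest GSK summit to a Veh-only summit lay at a median of 22591 bp (21792 to 23366), and 5.02% had one within 1 kb. For GSK-only summits the median was 20948 bp (19935 to 21686), with 5.73% within 1 kb of a Veh summit.

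Single-treatment peaks were also narrower and weaker. Part of this is built into the classes. A wide peak meets the 1 bp overlap more easily, and a peak near the cutoff is more easily missed in the other list. The same holds for the rise over deciles below, and the size of this part was not tested. The median width was 563 bp for shared Veh, 367 bp for Veh-only, 593 bp for shared GSK and 378 bp for GSK-only peaks. The median fold enrichment was 4.66, 3.81, 5.09 and 3.85, and the median −log10 p, the significance given to a peak by the peak caller, 8.33, 5.21, 9.15 and 5.30. Each list was cut into deciles by −log10 p, and in each list the share overlapped by the other list rose over the deciles. Beyond 1 kb from a TSS, 5.79% of the Veh peaks in the lowest decile and 82.6% (80.5 to 84.6) in the highest were overlapped by a GSK peak. For GSK the same shares were 9.24% and 97.0% (95.4 to 98.02). Strong distal Veh peaks were thus missing from the GSK list more often than strong distal GSK peaks from the Veh list, 228 of 1311 against 21 of 695. Within 1 kb, 98.3% of Veh and 97.9% of GSK peaks in the highest decile were shared, and 50.8% and 32.0% in the lowest.

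**Figure D2:**
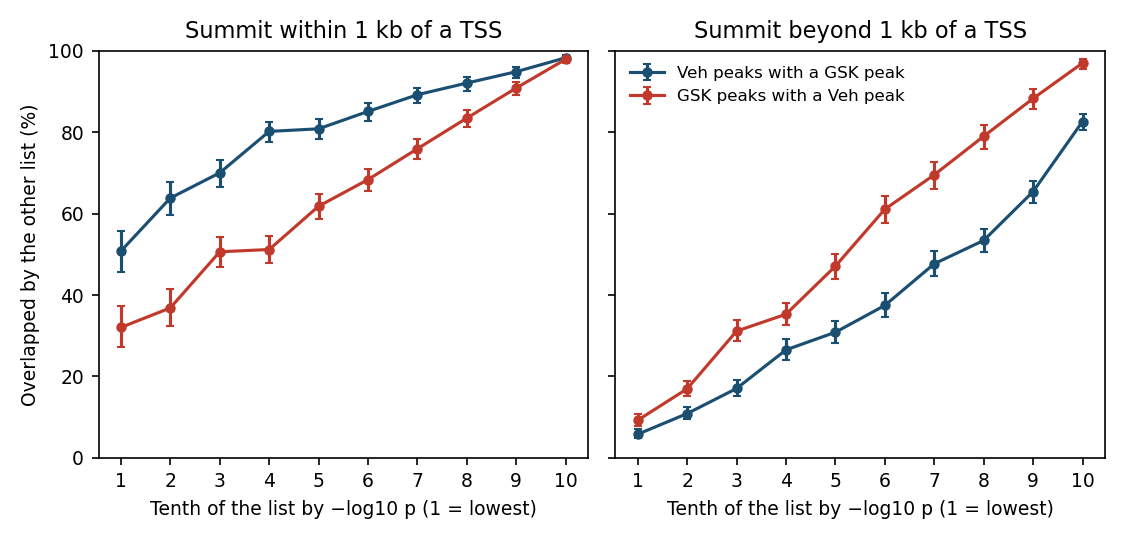
Percent of LSD1 peaks overlapped by a peak of the other list (y axis) by decile of −log10 p within their own list (x axis, 1 lowest), for summits within 1 kb of a TSS (left) and beyond it (right), with bars for 95% Wilson intervals. At the highest decile both lists reach about the same share near TSSs (98.3% and 97.9%), while beyond 1 kb the Veh line ends at 82.6% and the GSK line at 97.0%.

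By strength, the leading Veh-only peaks beyond 10 kb stood well above the leading GSK-only ones. The Veh-only list was headed by Ssh2 (−log10 p 60.7), Pds5a, the gene of a regulator of cohesin (51.0), 8430436N08Rik (49.0), and Moxd1 and Gm7607 (45.6 each). The Moxd1 summit had a GSK summit 1101 bp away, while the others had none within 20 kb. The strongest GSK-only peak beyond 10 kb lay near Mir101c on chromosome 9 with a −log10 p of 716, but 100% of the window at its summit (100 bp to either side) was repeat-masked. It was followed by Prex1, the gene of an exchange factor for Rac GTPases (24.7, 74.1% masked), Cldn9 (22.1), Gm16619 (17.6, 50.2% masked) and the Y RNA gene Rny3 (17.5). Near TSSs the leading Veh-only peaks belonged to Zfp383 (28.5), Emp3 (24.6), Klrc2, an activating receptor of NK and some CD8+ T cells (23.4), Tigar, a phosphatase of glycolysis (21.2), and Ldlrad4, a brake on TGF-β signalling (19.5). The Klrc2 summit had a GSK summit 931 bp away. The leading GSK-only peaks near TSSs were those of Adck2 (20.7), the centrosomal gene Cep43 (20.3), the mitochondrial ribosomal gene Mrpl52 (18.8), Tbc1d10c, an inhibitor of calcineurin signalling (18.5), and Ephb6 (18.5). All 5 peaks were overlapped by an H3K4me3 peak in both treatments, whereas among the 5 Veh-only peaks only those of Zfp383 and Tigar were.

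The strongest shared peaks were compared in their fold. Near TSSs, the fold in Veh and GSK was 21.2 and 21.7 at Exd1, 18.7 and 20.8 at Vti1a, a SNARE protein of vesicle fusion, 8.004 and 7.84 at Mir6546, and 11.9 and 14.2 at Pde8a, a phosphodiesterase of cyclic AMP. At Papln, named after its values were seen, it was 15.4 and 8.45. Beyond 10 kb the 5 highest −log10 p included 3 peaks near Mir101c whose windows were 92.0% to 100% repeat-masked (13.7 and 13.1, 12.8 and 11.5, and 10.3 and 9.40 fold), the Yae1d1 peak described above, and a peak nearest Esp38 (19.1 and 18.1 fold) that overlaps an annotated 18S ribosomal RNA pseudogene. The highest −log10 p of both lists, 3387 in Veh and 3714 in GSK, came from the same interval near Mavs (chr2:131240142-131240754). The window at its summit held no repeat-masked base. The Esp38 site and the largest Mir101c peak were overlapped by a peak of all 5 other antibodies in both treatments.

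The shift between treatments was then measured at 11213 sites where 1 Veh peak met 1 GSK peak, as log2 of the GSK fold over the Veh fold. The folds are those of each library's own peak calls and were not scaled to each other, so shifts of groups of sites are set beside each other. The median over all sites was +0.11 (0.10 to 0.12). It was +0.20 (0.19 to 0.21) within 1 kb of a TSS, where GSK was higher at 72% of 6742 sites, 0.00 (−0.02 to 0.03) at 1 to 10 kb, and −0.07 (−0.09 to −0.05) beyond 10 kb, where GSK was higher at 43.1% of 3059 sites. Of all sites, 87 had a GSK fold at most 0.5 times the Veh fold (0.776%), of which 58 lay beyond 10 kb and 9 within 1 kb. The GSK fold was at least 2 times the Veh fold at 70 sites (0.624%), of which 60 lay within 1 kb and 6 beyond 10 kb.

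The genes of the largest shifts were chosen after their values were seen. The windows of 3 shared sites with the largest falls carry their motif matches in capitals, TGANTCA at Otulinl, TGTGGTTT on the other strand at Cacnb4 and the STAT letters TTCNNNGAA at Map2k5. Otulinl (chr15:27850065-27850185) is a relative of a deubiquitinase, Cacnb4 (chr2:52561254-52561374) encodes a subunit of calcium channels and Map2k5 (chr9:63275250-63275370) a kinase upstream of ERK5.
Otulinl, shared: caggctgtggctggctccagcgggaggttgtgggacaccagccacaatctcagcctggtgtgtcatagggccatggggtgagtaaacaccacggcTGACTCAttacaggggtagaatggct
Cacnb4, shared: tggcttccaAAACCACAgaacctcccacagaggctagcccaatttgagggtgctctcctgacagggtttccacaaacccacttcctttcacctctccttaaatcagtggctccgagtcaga
Map2k5, shared: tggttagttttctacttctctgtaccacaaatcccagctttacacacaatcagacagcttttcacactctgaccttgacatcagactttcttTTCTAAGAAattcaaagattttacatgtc
The fold in Veh and GSK was 12.8 and 3.22 at Otulinl, 11.9 and 3.35 at Cacnb4, and 20.0 and 6.05 at Map2k5. Gcnt1, whose enzyme branches O-glycans on activated T cells, had a site 74463 bp from its TSS at 16.7 in Veh and 5.64 in GSK. Fcho2, Dennd5a, Minpp1 and Gcnt4 completed the 8 largest falls, and none of the 8 lay within 1 kb of a TSS. Of the 8 largest rises, 7 lay at promoters. They were those of Nipa2, a magnesium transporter (2.80 in Veh and 7.84 in GSK), the p53 target Trp53inp1 (2.93 and 7.59), Kidins220 (2.73 and 7.03), Poglut1, which modifies Notch receptors (4.66 and 11.3), Pdcd6 (3.83 and 9.25), Rhobtb3 (4.08 and 9.81) and Taf10, a subunit of TFIID (3.40 and 8.04). The other was an intergenic site 12.3 kb from Nup210, the gene of a nuclear pore protein (4.08 and 9.67).

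GC content of the window at the summit set the classes apart at TSSs and away from them. The median was 62.2% for shared Veh, 49.3% for Veh-only, 64.2% for shared GSK and 55.2% for GSK-only peaks, against 41.8% on the genome grid and 58.7% at all TSSs. Within 1 kb of a TSS, Veh-only peaks had 58.7% (57.7 to 59.2) and GSK-only peaks 66.7% (66.7 to 67.2). Beyond 10 kb the medians were 52.2% for shared Veh, 48.3% for Veh-only and 51.2% (50.7 to 51.2) for GSK-only peaks. Of Veh peaks beyond 10 kb, 11.4% (9.36 to 13.8) at no more than 40% GC and 87.2% (80.5 to 91.9) above 70% GC were shared. For GSK peaks these shares were 16.9% and 64.2%. The fold ratio of paired sites was higher at high GC. Beyond 10 kb the median log2 ratio rose from −0.20 (−0.24 to −0.13) at 40 to 45% GC to +0.22 (0.08 to 0.29) at 65 to 70% GC. Within 1 kb it was +0.22 (−0.26 to 0.54) at 17 sites of no more than 40% GC, +0.11 (0.05 to 0.21) at 40 to 45%, +0.04 (−0.02 to 0.12) at 45 to 50% and +0.26 (0.24 to 0.27) above 70%. At equal GC above 60%, sites far from TSSs shifted about as much as sites near them, 0.12 and 0.17 at 60 to 65% GC. Most distal sites lay below 60% GC, where far and near sites differed at equal GC. The far and near medians were −0.16 and +0.04 at 45 to 50%, −0.11 and +0.06 at 50 to 55%, and −0.02 and +0.11 at 55 to 60%. The part of GC content in the difference between promoters and distal sites was not tested beyond these values.

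**Figure D3:**
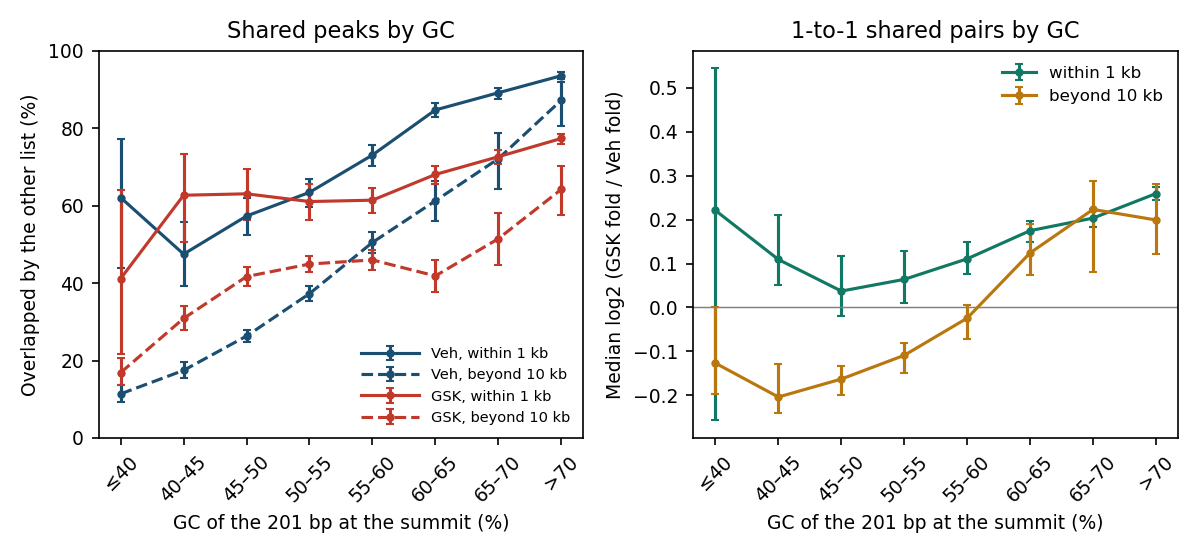
Left, percent of LSD1 peaks overlapped by the other list (y axis) by GC of the window 100 bp to either side of the summit (x axis, %), for Veh (blue) and GSK (red) peaks within 1 kb of a TSS (solid) and beyond 10 kb (dashed), with 95% Wilson intervals. Right, median log2 ratio of GSK to Veh fold (y axis) of 1-to-1 shared sites in the same GC bins, with order-statistic intervals, which runs from −0.20 to +0.22 beyond 10 kb and lies above 0 in all bins within 1 kb.

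Repeats held part of the single-treatment peaks. Over 50% of the window was repeat-masked at 7.95% (7.47 to 8.46) of shared Veh, 22.8% of Veh-only and 22.0% of GSK-only summits, and at 28.2% of the genome grid. Masked windows were left out of the motif counts beyond 10 kb.

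The letters of transcription factor motifs separated distal Veh-only from distal GSK-only peaks. The RUNX letters TGTGGTTT stood in 10.0% (8.91 to 11.2) of shared Veh windows, 8.64% of shared GSK, 6.66% (5.98 to 7.41) of Veh-only, 3.48% (2.87 to 4.22) of GSK-only and 1.59% of grid windows. For the AP-1 letters TGANTCA the shares were 16.9%, 14.8%, 13.8% (12.9 to 14.8), 8.83% (7.85 to 9.93) and 6.86%. RUNX and AP-1 factors act together at enhancers of activated CD8+ T cells. The STAT letters TTCNNNGAA stood in 9.62% (8.81 to 10.5) of Veh-only and 5.81% (5.01 to 6.73) of GSK-only windows, against 7.51% of the grid. The order was opposite for the SP/KLF letters GGGGCGGGG, a box of GC-rich promoters, with 1.19% (0.919 to 1.54) of Veh-only, 3.41% (2.81 to 4.15) of GSK-only and 0.297% of grid windows. The CTCF letters CCANNAGGG (4.26% and 5.49%) and the T-box letters AGGTGTGA (1.68% and 1.44%) had overlapping intervals in the Veh-only and GSK-only classes. So did the ETS letters CCGGAAGT, at 0.575% (0.395 to 0.835) and 0.563% (0.347 to 0.913). The IRF letters GAAANNGAA, at 6.15% (5.50 to 6.87) and 5.67% (4.88 to 6.58), and the E-box, GATA, NFkB and YY1 letters overlapped as well. The letters AATCACNGC, bound by GFI1, a known partner of LSD1, were rare. They stood in 0.893% (0.595 to 1.34) of shared Veh, 0.809% (0.590 to 1.11) of Veh-only and 0.246% (0.119 to 0.508) of GSK-only windows. The GSK-only share rests on 7 of 2841 windows, and the grid had 0.514% (0.479 to 0.551).

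**Figure D4:**
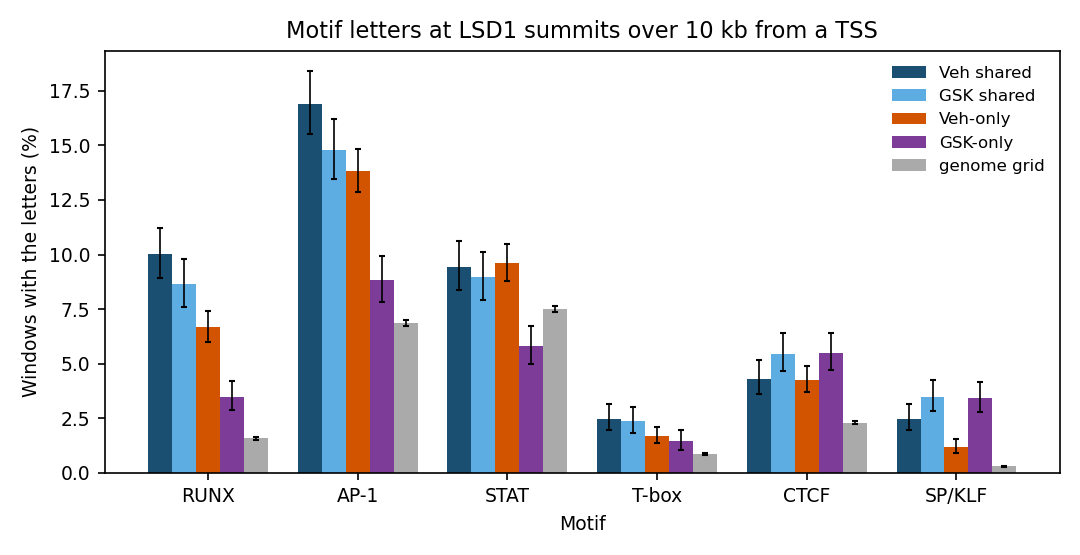
Percent of windows (100 bp to either side) at LSD1 summits over 10 kb from a TSS (y axis, from 0) that hold the letters of 6 motifs (x axis), in 4 classes of peaks and on the genome grid, with 95% Wilson intervals. RUNX letters step down from 10.0% in shared Veh to 6.66% in Veh-only, 3.48% in GSK-only and 1.59% on the grid, and SP/KLF letters are higher in GSK-only (3.41%) than in Veh-only windows (1.19%).

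The RUNX and AP-1 order also stood at like GC. In windows of 45 to 55% GC, RUNX letters stood in 11.8% of shared Veh, 6.93% (6.04 to 7.94) of Veh-only and 4.37% (3.40 to 5.59) of GSK-only windows, and AP-1 letters in 20.1%, 14.9% and 8.81%. At like strength the step from shared to Veh-only peaks was not seen. Among peaks of −log10 p from 5 to 10, RUNX letters stood in 8.46% (6.96 to 10.3) of shared Veh, 8.46% (7.34 to 9.74) of Veh-only and 4.47% (3.43 to 5.82) of GSK-only windows, and AP-1 letters in 14.7%, 16.8% (15.2 to 18.4) and 11.4% (9.65 to 13.3). Below 5, RUNX letters stood in 3.44% (2.74 to 4.31) of 2091 Veh-only and 2.70% (2.01 to 3.62) of 1590 GSK-only windows, with overlapping intervals, and AP-1 letters in 9.33% (8.15 to 10.6) and 6.79% (5.66 to 8.14). At 10 or more there were 88 GSK-only windows, and the intervals overlapped for RUNX letters, at 12.3% (9.78 to 15.4) of 528 Veh-only and 4.55% (1.78 to 11.1) of GSK-only windows, and for AP-1 letters, at 19.9% (16.7 to 23.5) of Veh-only windows and 11 of the 88 (7.13% to 21.01%). At paired sites beyond 10 kb, those with RUNX letters had a median log2 ratio of −0.19 (−0.25 to −0.14) and those without of −0.07 (−0.09 to −0.05). For AP-1 letters the medians were −0.18 (−0.23 to −0.13) and −0.07. In the 45 to 55% GC range the intervals of sites with and without the letters overlapped, at −0.25 (−0.32 to −0.15) and −0.16 (−0.18 to −0.13) for RUNX and −0.25 (−0.32 to −0.16) and −0.15 (−0.18 to −0.12) for AP-1. A count of 2080 sequences of 6 bases made without naming a factor had RUNX letters at its head. No AP-1 sequence was among the 8 that leaned most to Veh-only windows. These did include ACTTCC, part of the ETS letters on the other strand, at 22.4% of Veh-only and 16.6% of GSK-only windows. They also included CAGGAA, which holds the GGAA of the ETS letters, at 34.6% and 28.7%, and ACAGGA, at 27.3% and 21.7%. ACCACA, the core of the RUNX letters on the other strand, differed most, with 31.0% of Veh-only and 21.0% of GSK-only windows. The largest difference in the other direction was for CCCCAC, 20.3% and 28.2%, and all 8 sequences that led on that side were rich in C.

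Histone marks lay at distal shared peaks more often than at distal single-treatment peaks. An overlap of at least 1 bp anywhere in the LSD1 peak was counted, so wider peaks had more room for one. Beyond 10 kb the median width was 503 bp for shared Veh, 360 bp for Veh-only and 353 bp for GSK-only peaks. There, an H3K4me1 peak of Veh cells overlapped 65.4% (63.7 to 67.1) of shared Veh, 37.8% (36.6 to 39.0) of Veh-only and 27% (25.7 to 28.4) of GSK-only peaks. H3K27ac of Veh cells, the mark of active enhancers, overlapped 23.3%, 6.69% and 3.95%. No peak of H3K4me1, H3K4me2, H3K4me3, H3K27ac or Pol II in either treatment was found at 11.8% of shared Veh, 50.8% of Veh-only and 63.2% of GSK-only peaks. In GSK cells H3K4me1 overlapped 68.2%, 40.1% and 30.6%, and H3K27ac 8.64%, 1.82% and 0.785%. The study lists far more unique read pairs for the Veh than for the GSK H3K27ac library. The H3K27ac shares of the 2 treatments are therefore not set against each other, and the part of depth in them was not tested. The order of the single-treatment classes was the other way for H3K4me2 of GSK cells, at 4.07% (3.61 to 4.58) of Veh-only and 6.07% (5.40 to 6.82) of GSK-only summits, and H3K4me3 of GSK cells covered 9.20% (8.52 to 9.94) and 9.51% (8.67 to 10.4). Of distal Veh peaks, 45.7% of those overlapped by H3K4me1 in Veh and 21.3% of the rest were shared, and of distal GSK peaks 61.4% and 24.7% by H3K4me1 in GSK. Their median −log10 p was higher too, at 7.53 and 5.03 in Veh and 6.77 and 4.94 in GSK. Within 1 kb of a TSS, H3K4me3 of Veh cells overlapped 94.7% of shared Veh, 74.9% of Veh-only and 83.0% of GSK-only peaks, and Pol II of Veh cells 52.0%, 34.2% and 38.7%.

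The X chromosome stood apart from the 19 autosomes. On the 19 autosomes there were 6.32 to 12.6 Veh and 5.63 to 12.52 GSK peaks per Mb, and these followed the density of TSSs (across autosomes, Pearson's r = 0.879 and Spearman's rho = 0.944 for Veh, 0.917 and 0.965 for GSK, n = 19, given as a description). Veh-only peaks were 42.1% to 50.0% of the Veh peaks of an autosome, lowest on chromosome 11 (39.6 to 44.6) and highest on chromosome 13 (46.9 to 53.1), and this share was lower on autosomes with more TSSs per Mb (r = −0.716, rho = −0.786, n = 19, a description). GSK-only peaks were 39.3% to 44.7% of the GSK peaks of an autosome. The X chromosome held 426 Veh and 425 GSK peaks, 2.49 and 2.48 per Mb, at 7.78 TSSs per Mb against 8.83 on the sparsest autosome. On the X, 66.7% (62.1 to 71.0) of Veh peaks were Veh-only and 67.5% (62.9 to 71.8) of GSK peaks GSK-only. This held near and far from TSSs. Within 1 kb, 63.0% (55.4 to 70.02) of X and 84.0% of autosomal Veh peaks were shared, and beyond 1 kb 14.6% (10.8 to 19.4) and 35.9%. For GSK the shares were 52.1% and 72.6% within 1 kb, and 16.3% and 44.8% beyond it. X peaks were also weaker, with a median −log10 p beyond 1 kb of 4.18 against 6.30 on autosomes in Veh and 4.70 against 5.86 in GSK. Among peaks above their list's median −log10 p, 66.7% (56.8 to 75.3) of 96 X and 73.7% of autosomal Veh peaks were shared, with overlapping intervals. For GSK these shares were 63.4% (54.6 to 71.4) and 81.9%. Among the weaker peaks, 23.6% (19.4 to 28.5) of 330 X and 35.9% (34.9 to 36.8) of autosomal Veh peaks were shared. For GSK they were 19.9% (15.8 to 24.7) and 34.3% (33.3 to 35.2), and the intervals did not overlap in either list.

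**Figure D5:**
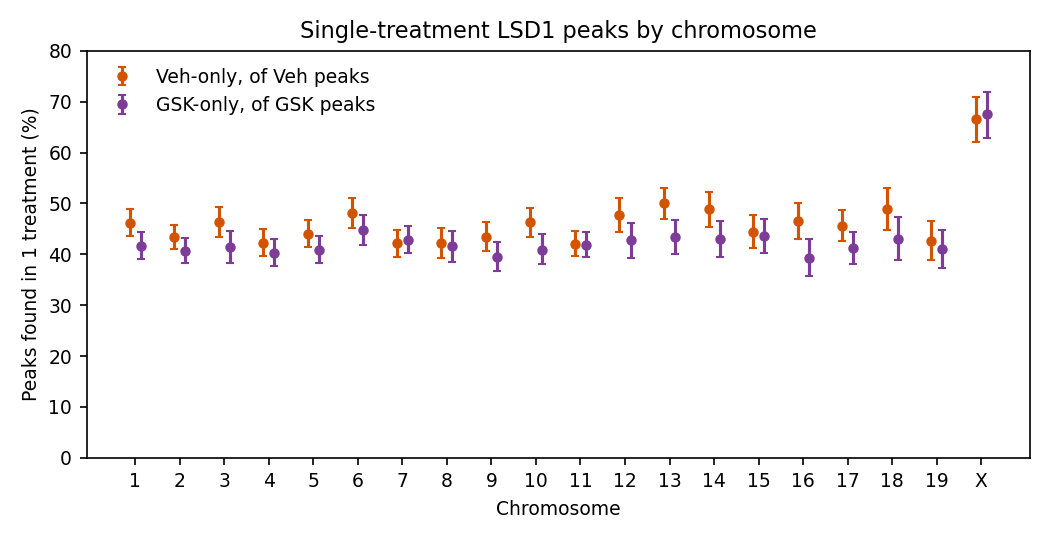
Percent of the LSD1 peaks of each list that were found in that treatment alone (y axis), by chromosome (x axis), with 95% Wilson intervals. The autosomes lie between 39.3% and 50.0% for both treatments, and the X chromosome at 66.7% (Veh) and 67.5% (GSK).

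Clusters were formed from summits no more than 12500 bp apart. They held 35.8% (35.2 to 36.5) of Veh and 33.8% (33.1 to 34.4) of GSK peaks, and without the summits near TSSs 28.5% and 23.8%. Clustered distal peaks were shared more often than lone ones. Beyond 1 kb from a TSS, 31.4% (30.4 to 32.3) of lone Veh peaks and 54.5% (49.7 to 59.3) of those in clusters of 4 or more were shared, and 39.8% and 68.9% (62.6 to 74.6) of GSK peaks. The largest in Veh held 13 peaks, 8 of them shared, over 76.3 kb at the histone genes H2ac12, H2bc11 and H4c9 and at Pom121l2 and Prss16 (chr13:21974887-22051165), where GSK had 9, of which 8 were shared. A further stretch of histone genes (chr13:23531006-23585969) held 9 Veh peaks, all shared, and 11 in GSK. Another stretch around H1f2 and H3c1 held 8 Veh peaks, 7 of them shared. At Pisd-ps1 and Sfi1 on chromosome 11, 5 of 8 Veh and 6 of 12 GSK peaks were shared. Histone genes are many near-identical copies, and how reads were divided among them was not analysed here. The Sgk1 cluster, at the gene of a serum- and glucocorticoid-induced kinase, held 7 Veh peaks over 57.1 kb, of which 2 were shared. In GSK, 10 peaks, 7 of them shared, lay at the Y RNA genes Rny1 and Rny3, with a median of 37.3% of the window repeat-masked, and 9, 5 of them shared, around Nfkb2, a subunit of NF-κB.

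Each peak was assigned to the gene of its nearest TSS. Of 26089 genes, 8980 had a shared Veh peak (34.4%), 6777 a Veh-only peak (26%) and 6577 a GSK-only peak (25.2%). The single-treatment classes met at many genes: 2653 genes had both, which was 39.1% of the genes with a Veh-only and 40.3% of those with a GSK-only peak. The genes with the most shared peaks included several transcription factors. Bach2, a repressor that holds back effector genes, Maf and Lef1 had 9 each, and Runx3, Runx1 and Gm17746 had 8 each. Foxp1, which keeps T cells quiescent, and Tab2, an adaptor of the kinase TAK1, led the Veh-only peaks with 11 each. At Tab2, 11 Veh-only peaks stood beside 1 GSK-only peak, while Foxp1 also had 7 GSK-only peaks. Dleu2, a host gene of microRNAs, had 9 Veh-only and 0 GSK-only peaks, 7530428D23Rik and Gm30948 had 10 Veh-only peaks each and Macroh2a3 had 9. Gm30214 had the most GSK-only peaks, 12, with 6 Veh-only peaks. Bcl2l11, which encodes the death protein BIM, Gse1, a partner of LSD1 in CoREST, 7530428D23Rik and Dad1, which lies beside the T-cell receptor alpha locus, had 6 each. The count of peaks rose with the stretch of genome nearest to a gene. A GSK-only peak was assigned to 11% of genes with up to 10 kb of such territory and to 47.8% of genes with over 300 kb, and a Veh-only peak to 6.52% and 55.6%. The lists below are therefore given with their territory, whose median over all genes was 42.9 kb. Their counts of genes stand beside the shares of all genes, 34.4%, 26% and 25.2%.

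LSD1 and its partners carried LSD1 themselves. Of 19 genes of the complex and of the factors that bring it to DNA, 16 had a shared peak, 9 a Veh-only peak and 7 a GSK-only peak, at a median territory of 86.0 kb. A promoter peak is one with its summit within 1 kb of the gene's TSS, and a promoter is given to 1 treatment alone where the other list had no such summit, even if a peak centred farther off overlapped it. At promoters, 16 of 19 (84.2%) had a peak in both lists, 2 in GSK alone, and 1, Gfi1b, in neither. Over all genes 25.7% had one in both, 5.14% in Veh alone and 9.79% in GSK alone. Among the other lists below, the share with one in both ran from 0.0901% (odorant receptors) to 53.8% (cytokine receptors and JAK-STAT). The promoter fold in Veh and GSK was 4.40 and 5.96 at Kdm1a, the gene of LSD1, 11.8 and 14.4 at Phf21a, the complex subunit that reads unmethylated H3K4, 8.41 and 6.68 at Rcor2, 7.97 and 6.56 at Hdac2, and 5.80 and 5.62 at Zmym2. Rcor1, the CoREST scaffold, had 3.94 in GSK and no peak in Veh.

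Transcription factors of T cells and genes of memory and progenitor cells were the densest lists, with 5.76 and 5.80 peaks per gene against 1.14 over all genes, at median territories of 121 and 79.7 kb. Of 45 transcription factors, 41 had a shared, 29 a Veh-only and 36 a GSK-only peak. At their promoters, 24 (53.3%) had a peak in both lists, 5 (11.1%) in Veh alone and 12 (26.7%) in GSK alone. Over all genes these shares were 25.7%, 5.14% and 9.79%, so GSK-alone promoters were the more frequent there as well. The shared peaks of highest −log10 p, given here with their Veh fold, were those of Tox2 (12.8, 3.83 kb from the TSS), Fosb (11.5), Nfatc2 (11.1), Tbx21, which encodes T-bet (10.4), and Runx2 (9.26). Tox, a factor of exhausted T cells, had a Veh-only peak of 8.64 fold 94.8 kb from its TSS, and Irf8 one of 5.65 at 12.1 kb. Stat5b, which acts downstream of IL-2, had the strongest GSK-only peak of the list, 6.92 fold at 13.0 kb. The 12 promoters with a summit in GSK alone were those of Tox2, Gata3, Nr4a1, Egr3, Foxp1, Prdm1, Jun, Egr1, Myb, Irf4, Junb and Nr4a3, at folds of 3.26 (Egr3) to 4.93 (Tox2), and the 5 in Veh alone those of Fosb, Batf, Tcf3, Fosl2 and Zbtb32, at 2.78 (Tcf3) to 4.42 (Zbtb32). At Jun a Veh summit lay just outside, 1.28 kb from the TSS.

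Of the 15 memory and progenitor genes, 13 had a shared, 9 a Veh-only and 14 a GSK-only peak. Lef1 had 9 shared peaks, the strongest at 12.8 fold in Veh and 52.4 kb from its TSS, and 1 Veh-only and 2 GSK-only peaks. Klf2, which controls exit from lymphoid tissue, had 4 shared peaks (highest 8.46) and a promoter peak in GSK alone (4.09). Its target S1pr1, the receptor that guides that exit, likewise had 4.41 at the promoter in GSK alone. Tcf7, which encodes TCF-1, had 4.01 at its promoter in GSK alone, and Ccr7 (4.09) had a promoter peak in Veh alone. At the promoters of the whole list, 6 genes (40%) had a peak in both lists, 2 (13.3%) in Veh alone and 3 (20%) in GSK alone. Over all genes these shares were 25.7%, 5.14% and 9.79%.

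Inhibitory receptors and effector molecules showed more Veh-only than GSK-only peaks, as did the lists as a whole with 9655 against 8412. Of 11 inhibitory receptor genes, 5 had a shared, 7 a Veh-only and 7 a GSK-only peak, with 15 Veh-only and 9 GSK-only peaks in all, at a median territory of 60.8 kb. Havcr2, which encodes TIM-3, had 4 Veh-only and 0 GSK-only peaks and a promoter peak in Veh alone (3.83). Ctla4 had 3 Veh-only and 1 GSK-only peak, and Tigit a shared peak of 9.35 fold 26.0 kb from its TSS and a promoter fold of 7.25 in Veh and 7.09 in GSK. Pdcd1, which encodes PD-1, had 2 GSK-only peaks, the stronger of 4.45 fold 3.63 kb from its TSS, and no Veh peak. Cd101 had a Veh-only peak of 8.003 fold at 27.2 kb. Of 14 effector genes, 8 had a shared, 7 a Veh-only and 3 a GSK-only peak, with 13 Veh-only and 4 GSK-only peaks in all, at 40.8 kb. Gzmb, the gene of granzyme B, had 4 shared peaks and none of a single treatment. Ifng had 3 shared, 4 Veh-only and 1 GSK-only peak, and its promoter fold was 5.54 in Veh and 3.601 in GSK. Prf1, the gene of perforin, had 2 shared and 3 Veh-only peaks. The granzyme gene Gzmc (5.97), the chemokine gene Xcl1 (5.82) and the cytokine gene Csf2 (4.37) had a promoter peak in Veh alone, and Fasl (4.07) and Ccl3 (3.75) in GSK alone.

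T-cell receptor signalling genes had 27 shared, 30 Veh-only and 17 GSK-only peaks over 21 genes, at a median territory of 54.6 kb. A peak of these kinds was assigned to 15 (71.4%), 13 (61.9%) and 11 (52.4%) of the genes. Over all genes the shares were 34.4%, 26% and 25.2%. Prkcq, a kinase of the immune synapse, had 7 Veh-only, 3 GSK-only and 1 shared peak. The coreceptor gene Cd8b1 had 5 Veh-only, 1 GSK-only and 1 shared peak, and the promoters of Cd8a (4.64) and Cd8b1 (3.07) had a peak in Veh alone. Vav1 had 2 shared peaks, the stronger of 8.39 fold, and none of a single treatment. Of 26 genes of cytokine receptors and JAK-STAT signalling, 20 had a shared, 15 a Veh-only and 12 a GSK-only peak, at 55.5 kb. The IL-12 receptor gene Il12rb2 had 5 Veh-only and 1 GSK-only peak, the strongest Veh-only peak at 6.97 fold 8.44 kb from its TSS. Il21r had 7 shared peaks, and Ifnar2 a shared peak of 10.5 fold. Jak3 (3.71) and Cish, an inhibitor induced by STAT5 (4.45), had a promoter peak in GSK alone.

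Among 26 cell cycle genes, 14 had a shared, 12 a Veh-only and 9 a GSK-only peak at a median territory of 36.4 kb, with promoter peaks of 13 in both lists, 1 in Veh alone (Mcm4, 4.20) and 4 in GSK alone (Mcm3, Cdk2, Cdk6 and Rrm2). Mki67, the proliferation marker Ki-67, had 6.89 in Veh and 8.93 in GSK. The 81 genes of cytosolic ribosomal proteins, with a median territory of 14.8 kb, had promoter peaks of 25 in both lists, 7 in Veh alone and 24 in GSK alone. Over all genes the corresponding counts were 6713, 1341 and 2554 (25.7%, 5.14% and 9.79%), so GSK-alone promoters outnumbered Veh-alone ones there too. Odorant receptor genes (Olfr), which are silent in T cells, gave a view of sparsely bound regions. At a median territory of 21.9 kb, 13 of 1110 such genes had a shared, 52 a Veh-only and 47 a GSK-only peak, and 81.4% of their Veh peaks were Veh-only.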

How the data were processed

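ChIP-seq peak lists of 12 libraries (6 antibodies, Veh and GSK, 1 list each) were used. The 5 lists per treatment of other antibodies served to ask whether a peak overlapped an LSD1 peak by at least 1 bp. H3K4me3 was also used in the check of the cell type. Per the study's methods, Bowtie2 alignments to mm10 were kept where unique, Samtools was used by the authors to drop duplicate reads, and MACS2 peaks were kept below a p-value limit. Equal read numbers were drawn for signal tracks, and whether this was also done before peak calling, or which input served each call, is not given in the sources used here. In the peak lists the authors deposited, each peak has a score, a ratio (fold enrichment over local background), a −log10 p and a −log10 q. A deeper library gives more and weaker peaks, and depth cannot be read from these lists. The study does list unique read pairs per library, slightly more for Veh than for GSK LSD1 and far more for Veh than for GSK H3K27ac.

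Summits were placed against 31510 TSSs of 26089 genes (curated RefSeq transcripts, GRCm38.p6, chromosomes 1 to 19 and X), and sequence windows reached 100 bp to either side. Exact letters of 19 motifs were counted on both strands, and the grid held a position every 10 kb. Peaks of chromosome 18 were left out when windows were chosen for printing. Shares have Wilson and medians order-statistic 95% intervals. Functions were tested on simulated data. Python 3.11.15, numpy 2.4.6, pandas 2.3.3 and scipy 1.17.1 were used.

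The members, gene lists and comparisons were chosen with earlier results of these data known. Genes were named by rule: the nearest genes of the 5 peaks of highest −log10 p within 1 kb and of the 5 beyond 10 kb of a TSS in each class, the 6 genes with the most peaks per class, genes of the 5 largest clusters per list, and in each gene list up to 5 genes, those with the highest −log10 p per class. Other list genes, the genes with promoter peaks in 1 treatment alone and the largest shifts were named after their values were seen. Some genes that the rule names are not reported here.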

Additional observations from a re-analysis of the deposited data

How the results depend on the processing

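All results rest on 1 library per treatment. No paired analysis was possible because each treatment had 1 LSD1 library. Depth was not analysed here and limits which peaks were called, so absence of a peak is absence from a list only. Of 53 planned values 2 stayed within their interval, 51 moved and 0 reversed, and shared peaks led GSK-only and then Veh-only peaks in share within 1 kb of a TSS under each alternative run. The cause of each move was not tested, beyond what an alternative changes by construction.

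The overlapped share of Veh peaks (54.6%) was 42.5% where at least 50% of each peak had to overlap, 43.04% for summits within 250 bp, 61.2% at a −log10 q of at least 2, 62.5% for the 15000 peaks of highest −log10 p and 57.7% without repeat-masked peaks. For GSK (57.8%) it was 45.3%, 45.9%, 62.7%, 62.3% and 60.3% in the same order. The share within 1 kb of a TSS for Veh-only peaks (14.3%) was then 25.04%, 26.1%, 17.7%, 19.5% and 17.4%, and for GSK-only peaks (32.1%) 39.6%, 41.05%, 45.6%, 49.85% and 40.3%. For shared Veh peaks (60.8%) it was 59.5% by the 50% overlap, 57.6% by summits and 65.2% without repeats. With TSSs of all RefSeq transcripts it was 64.6% for shared Veh, 17.8% for Veh-only and 36.1% for GSK-only peaks. Median widths under the first 5 alternatives were 580, 544, 583, 593.5 and 570 bp for shared Veh peaks, 379, 391, 390, 403 and 374 bp for Veh-only peaks, and 401, 414, 423, 441 and 395 bp for GSK-only peaks. The share of Veh peaks in clusters (35.8%) was 32.95% by −log10 q, 31.4% for the 15000, 31.8% without repeats, 13.4% at a reach of 5 kb and 57.98% at 25 kb. For GSK (33.8%) it was 31.2%, 29.1%, 31.05%, 12.3% and 55.7%.

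Differences chosen after seeing the data kept their sign under 6 alternatives each, and of these 48 values 38 were within 25% of the reported one. In percentage points, the Veh-only minus GSK-only share with RUNX letters ran from 2.88 to 5.09, that with AP-1 letters from 4.27 to 6.76, median GC from −10.4 to −5.97 and median GC beyond 10 kb from −4.48 to −2.99. The shared part on the X minus that on autosomes ran from −21.7 to −10.3 for Veh and from −25.85 to −19.99 for GSK, and that of the highest decile beyond 1 kb in GSK minus Veh from 12.3 to 15.0. The log2 ratio within 1 kb minus beyond 10 kb ran from 0.24 to 0.29.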
